A study of Mus musculus with 12 samples.

Results

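The Notch receptors Notch1 and Notch2, the Notch ligands Dll1, Dll4 and Jag1, the Notch target Hes1, the secretory fate factor Atoh1 and the Wnt ligand Wnt3 were followed across culture conditions and epithelial cell classes of murine small intestinal (SI) organoids. These 8 genes were taken by their symbols from the 32285 gene rows of single-cell count matrices, and all 8 were present.

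In the crypt, a cell that carries a Notch ligand activates the Notch receptors of the cells it touches. The receptor is cleaved, its intracellular part joins the DNA-binding protein RBPJ, and target genes such as Hes1 are switched on, which keeps the cell a stem or absorptive progenitor cell. Hes1 represses Atoh1, and cells that escape Notch signaling keep Atoh1 and become goblet, Paneth or endocrine cells. These secretory cells present Dll ligands to their neighbors, and Paneth cells supply stem cells with Wnt3.

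The genes lie on several mouse chromosomes (GRCm38, GENCODE vM21). On chromosome 2 are Notch1 (26457903 to 26516663, minus strand), Dll4 (119325784 to 119335962, plus strand) and Jag1 (137081456 to 137116644, minus strand). Hes1 lies on chromosome 16 (30064384 to 30067796, plus strand), Atoh1 on chromosome 6 (64729125 to 64731245, plus strand) and Wnt3 on chromosome 11 (103774150 to 103817957, plus strand). Notch2 lies on chromosome 3 (98013527 to 98150361, plus strand) and Dll1 on chromosome 17 (15367354 to 15376872, minus strand).

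The stretches of 250 bases upstream of Atoh1 and Dll1 are shown, since Atoh1 is the factor that separates secretory from absorptive cells and Dll1 is one of the ligands found at a higher level, like Dll4, in cells with Atoh1 below. They are RefSeq windows on GRCm38.p6, at chr6:64728875-64729124 (plus strand) and chr17:15376933-15377182 (minus strand), which both end upstream of the annotated gene. Capitals mark the E-box letters CANNTG, which bHLH factors such as Atoh1 can bind.
Atoh1: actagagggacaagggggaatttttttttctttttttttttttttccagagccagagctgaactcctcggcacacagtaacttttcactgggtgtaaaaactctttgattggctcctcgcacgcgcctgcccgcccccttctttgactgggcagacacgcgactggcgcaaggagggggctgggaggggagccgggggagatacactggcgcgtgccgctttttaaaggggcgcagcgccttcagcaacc
Dll1: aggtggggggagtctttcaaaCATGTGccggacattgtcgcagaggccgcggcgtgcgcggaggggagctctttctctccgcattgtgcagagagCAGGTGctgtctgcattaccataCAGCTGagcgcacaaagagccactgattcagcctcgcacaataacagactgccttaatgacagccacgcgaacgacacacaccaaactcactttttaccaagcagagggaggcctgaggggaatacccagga
The Dll1 stretch held 3 E-boxes and the Atoh1 stretch held 0. Dll1 had another RefSeq window, whose upstream stretch (chr17:15375824-15376073, minus strand) is not printed and held a single E-box, CATTTG. The bases that follow the printed Dll1 stretch were not found in an annotated Dll1 transcript, so that the E-box count depends on the window chosen. RefSeq windows of 300 bases (250 before and 50 after the start) were matched for 7 of the 8 genes, in 8 windows. On either strand, E-box letters were found in 4 of these 8 windows and in 72.31% of all promoter windows. The N-box letters CACNAG, which Hes factors can bind, were found in 5 of 8 windows and in 42.48% of all windows. The letters TTCNNNGAA (interferon-gamma activated sites), of the interferon-stimulated response element (ISRE, searched by its consensus) and GTGGGAA (RBPJ) were in 0 of the 8 windows, against 8.3%, 3.44% and 6.38% of all windows. In the printed stretches the 3 E-boxes were the only matches, so that no motifs overlapped there. The matches describe letters in a window and nothing of factor binding.

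Organoids were grown from crypts of WT Balb/c mice in medium with EGF, noggin and R-spondin-1. They were passaged and kept for 4 days under 6 conditions: alone (control), with 100000 allogeneic CD25highFoxP3-GFP+ Treg cells per well, with Treg cells plus anti-IFNγ, with Treg cells plus anti-IL-10R, with Treg cells plus both antibodies (10 µg/ml each), or with the cytokines rIFNγ (0.25 ng/ml) and rIL-10 (10 ng/ml) and no T cells. Co-cultures received 30 U/ml IL-2 and CD3/CD28 beads, and plates were tilted so that T cells and organoids did not touch. Live EpCAM+ cells were labeled with 1 hashtag antibody per condition, pooled and sequenced as 3′ single-cell libraries, in 3 replicates (I, II and III).

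After hashtag calling and filtering, 11603 cells remained, and the unique molecular identifiers (UMIs) of all cells of a condition and replicate were summed into 18 samples of 333 to 962 cells and 15032618 to 41983480 UMIs. Levels are given as counts per 1000000 UMIs (CPM) of these sums, as mean ± SD over 3 replicates. Cells were assigned to classes from control cell clusters without the use of the 8 genes. The secretory classes were 441 goblet/Paneth-like and 233 endocrine-like cells. The remaining named classes were stem cell-like (ISC-like, 1005 cells), transit amplifying (TA)-like (5269), enterocyte progenitor (EP)-like (2022) and enterocyte-like (1526), and 1107 cells were left unnamed. The name EP-like is weak: the larger of its control clusters (172 cells) was led by Dmbt1, an enterocyte progenitor marker, together with mitosis genes such as Hmmr and Cenpe, so that much of the class was cycling, and the smaller (109 cells) had none of the progenitor markers among its 10 leading genes. With cluster profiles summed from 2 replicates as reference, 81.0% to 86.5% of the control cells in the other replicate kept their class. The clusters and marker genes came from all 3 replicates, so the cells checked had helped to define them. No cells of the other conditions were checked in this way. Markers of T cells summed to at most 0.43 CPM in 16 samples, and to 3.02 and 10.87 CPM in replicates II and III of Treg plus anti-IL-10R, whose part in the results of that group was not tested. Libraries shared between 0 and 5 cell barcodes.

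To place the pathway in the control organoid, levels were first compared between cell classes. Classes were built from the same cells, so that these levels are a description without a test. Both receptors were highest in ISC-like and TA-like cells, and the mean of Notch1 was lowest in the secretory classes. Notch1 measured 24.2, 23.0 and 20.5 CPM in ISC-like cells of replicates I, II and III and 22.6, 17.7 and 15.2 CPM in TA-like cells. The mean fell through 9.84 ± 3.16 in enterocyte-like and 9.11 ± 2.87 in EP-like cells to 7.74 ± 2.09 CPM in endocrine-like and 3.33 ± 1.40 CPM in goblet/Paneth-like cells. The neighbors in this order overlapped, apart from TA-like and enterocyte-like cells and from endocrine-like and goblet/Paneth-like cells. Both secretory levels rest on few UMIs. Goblet/Paneth-like control sums held 1, 3 and 1 Notch1 UMIs, and endocrine-like control sums held 101669 to 259011 UMIs of all genes.

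Notch2, the second receptor, was also higher in ISC-like and TA-like cells, with 11.8 ± 1.17 CPM in ISC-like cells, 10.3 ± 2.11 CPM for TA-like and 6.61 ± 1.42 CPM for EP-like cells, 3.26 ± 1.03 CPM in enterocyte-like cells and 3.00 ± 3.33 CPM in goblet/Paneth-like cells, the last classes overlapping. In endocrine-like control cells 0 UMIs of Notch2 were found, which allows a level of up to 5.58 CPM. This limit (3 counts) and all intervals for shares and for ratios of pooled UMIs cover counting error only.

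The ligands differed in their pattern. Dll1 was highest in goblet/Paneth-like cells, at 134, 107 and 98.5 CPM, above its 7.14 to 18.8 CPM in ISC-like and 8.06 to 14.3 CPM in TA-like cells. In endocrine-like cells it measured 11.3, 27.0 and 9.84 CPM, which overlapped with ISC-like and TA-like cells. Dll4 was high in both secretory classes. It measured 25.7 ± 5.18 CPM in goblet/Paneth-like and 35.4 ± 13.1 CPM in endocrine-like cells, which overlapped, and at most 4.55 CPM in any control sum of the other named classes. Jag1, by contrast, was found at similar levels in all classes, with means between 5.15 CPM (endocrine-like) and 11.3 CPM (goblet/Paneth-like) and overlapping replicates between neighbors in this order.

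Hes1, which Notch signaling induces, was low in both secretory classes. In ISC-like cells it measured 149, 237 and 193 CPM, in TA-like cells 131, 226 and 120.1 CPM and in enterocyte-like cells 143, 173 and 90.0 CPM, all overlapping. In goblet/Paneth-like cells it measured 13.1, 47.8 and 12.02 CPM and in endocrine-like cells 11.3, 3.86 and 9.84 CPM, below every sum of the absorptive classes.

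Atoh1 was found at a high level in goblet/Paneth-like cells, at 149.8, 158 and 240.4 CPM. With every cell thinned to 10000 UMIs, 70.7% of these 41 control cells had an Atoh1 UMI (95% exact interval 54.5% to 83.9%), and 87.8% without thinning. Among 203 enterocyte-like control cells, which should lack the gene, the thinned share was 0%, which allows up to 1.48%, at a median of 37864 UMIs per cell against 33944. TA-like cells held 2.20 to 4.13 CPM of Atoh1. As they outnumber goblet/Paneth-like cells, this came to 34, 83 and 27 UMIs, against 57, 96 and 100 UMIs in goblet/Paneth-like cells.

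Wnt3 was found in both secretory classes, and so not in goblet/Paneth-like cells alone. Its levels were 68.3, 67.5 and 50.5 CPM in goblet/Paneth-like cells and 34.0, 77.2 and 88.5 CPM in the 10, 12 and 7 endocrine-like cells of the control replicates, and the classes overlapped. In enterocyte-like cells 0 Wnt3 UMIs were found, which allows up to 0.390 CPM, and TA-like cells held 0.388 to 0.920 CPM. The goblet/Paneth-like cells of all conditions fell into 5 sub-clusters, whose pooled Wnt3 levels ranged from 53.8 to 67.6 CPM. The sub-cluster led by defensins (48 cells, 191593 CPM of Defa24) had 64.7 CPM of Wnt3 and 35.9 CPM of Dll1. The sub-cluster led by the goblet cell genes Zg16 and Clca1 (162 cells) had 53.8 CPM of Wnt3 and 134.6 CPM of Dll1. It also held 22047 CPM of Defa24 and 2577 CPM of the Paneth cell gene Lyz1, so that goblet and Paneth cells were not separated here.

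**Figure D1:**
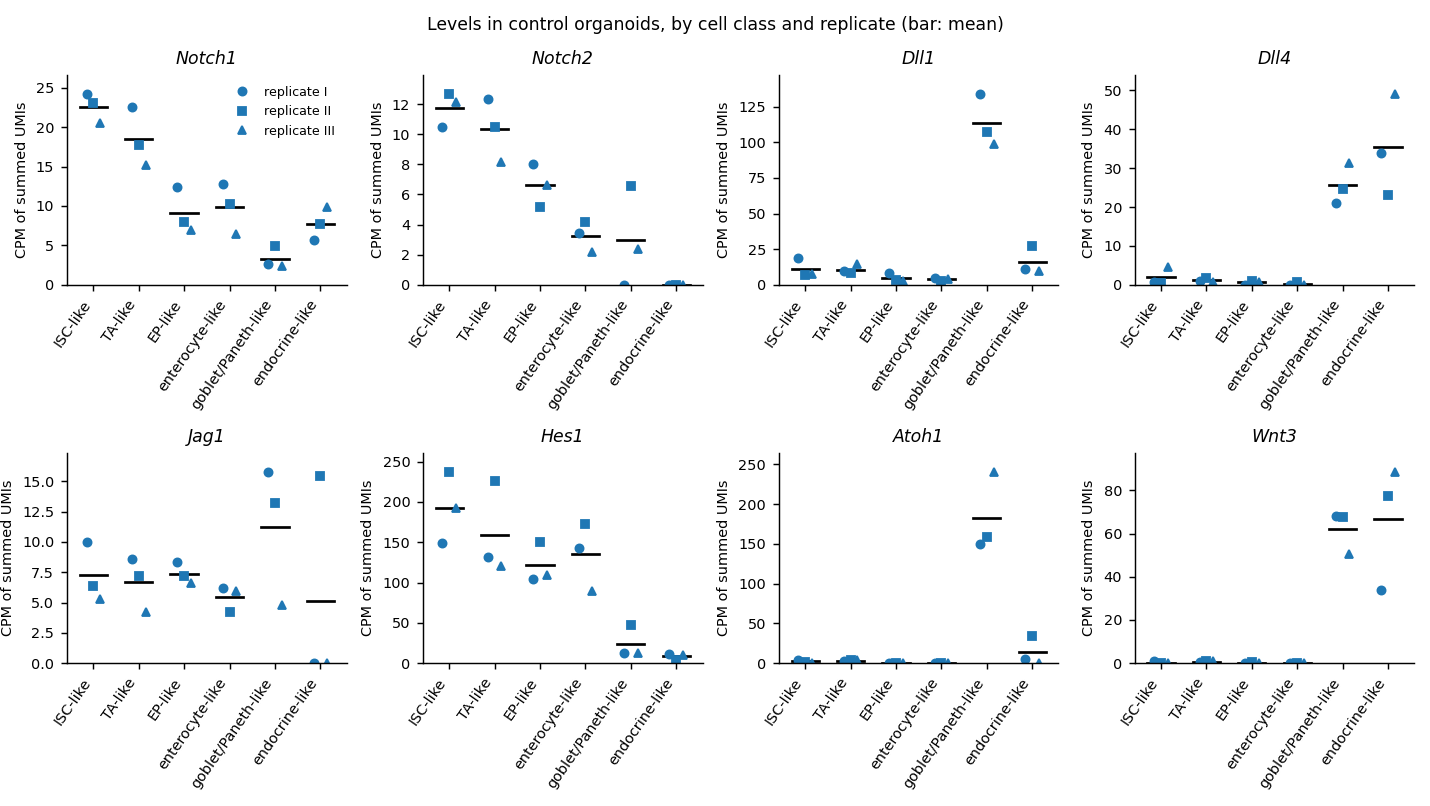
Level of each gene (CPM of summed UMIs, linear axis from 0) in the 6 named cell classes of control organoids, with 1 point for each of the 3 replicates and a bar at the mean. Dll1, Dll4, Atoh1 and Wnt3 are high in goblet/Paneth-like cells, Dll4 and Wnt3 also in endocrine-like cells, and Hes1 is low in both. Notch1 has its lowest means in both, from few UMIs.

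The genes with the most similar pattern over the 18 control sums of class and replicate (Pearson correlation of log2(CPM + 1) among 8404 genes) were sought for each gene. Sums of 1 replicate share libraries and depth, and the values are a description. For Wnt3 these were Kcnma1 (r = 0.991), Cbfa2t3 (0.978) and Ets1 (0.976), and for Atoh1 Spink4 (0.953), Mptx1 (0.945) and the defensin Defa24 (0.944). For Dll4 they were Hepacam2 (0.981), Stard10 (0.970) and Adgre5 (0.969), and for Dll1 Ern2 (0.95), Pdia5 (0.947) and Impad1 (0.934). Hes1 was followed by Mpzl2 (0.962), Cps1 (0.957) and Prlr (0.953), Notch1 by Eed (0.907), Arl6ip6 (0.896) and Sdc1 (0.895), Notch2 by Snhg6 (0.943), Fgfbp1 (0.938) and Dctd (0.936), and Jag1 by Zfp317 (0.953), Dhx29 (0.915) and Mapk9 (0.904).

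Next, it was asked how stimulation with rIFNγ plus rIL-10 changed the genes over the whole organoid. Notch1 and Hes1 fell, and Atoh1, Wnt3 and Dll4 rose. Of the 8 genes, 6 passed the test (edgeR, adjusted p under 0.05), beside 36.6% of all 14947 genes tested.

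Among the receptors, Notch1 measured 19.0, 14.99 and 12.3 CPM in control organoids and 7.51, 10.3 and 7.52 CPM after stimulation. All 3 stimulated samples lay below all controls. The change was -0.84 ± 0.13 on the log2 scale (SE), a 1.79-fold lower level (edgeR adjusted p = 0.00032). Notch2 measured 9.94, 8.53 and 7.16 CPM in controls and 8.02, 7.91 and 6.12 CPM in stimulated samples, which overlapped. Its change of -0.21 ± 0.07 passed the test (edgeR adjusted p = 0.037) but was called in only 1 of 9 alternative analyses, and leaving out any 1 replicate ended the call (adjusted p = 0.38 without I, 0.089 without II and 0.13 without III).

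Of the ligands, Dll4 measured 1.03, 1.87 and 2.34 CPM in controls and 3.42, 3.45 and 1.93 CPM after stimulation. The groups overlapped, since the stimulated sample of replicate III lay below its control. The change was 0.85 ± 0.26 (edgeR adjusted p = 0.022), and the call was lost without replicate I (0.43, adjusted p = 0.33) or II (0.83, adjusted p = 0.14). Dll1 measured 10.8, 8.75 and 12.05 CPM in controls and 13.0, 15.4 and 12.8 CPM in stimulated samples, without overlap, and its difference of 0.42 ± 0.16 missed the threshold (edgeR adjusted p = 0.053) but was called in 4 of 9 alternatives, DESeq2 among them (adjusted p = 0.040). Jag1 differed by -0.03 ± 0.09 (95% interval -0.20 to 0.14).

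Hes1 measured 126, 204 and 118 CPM in controls and 56.5, 130.1 and 78.9 CPM after stimulation. Replicate II was highest in both groups, so that the groups overlapped, and the stimulated sample was the lower one within every replicate. The change was -0.77 ± 0.11 (edgeR adjusted p = 0.00021), and it was not called without replicate as a block (adjusted p = 0.16).

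Atoh1 rose from 3.50, 5.49 and 8.40 CPM to 14.6, 11.9 and 13.4 CPM, and Wnt3 from 1.41, 2.25 and 2.41 CPM to 5.66, 5.05 and 5.72 CPM. No stimulated sample overlapped with a sample of any other condition for either gene. The changes were 1.31 ± 0.26 for Atoh1 (2.48-fold, edgeR adjusted p = 0.0018) and 1.499 ± 0.32 for Wnt3 (2.83-fold, edgeR adjusted p = 0.0028), and both passed in all 9 alternative analyses.

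**Figure D2:**
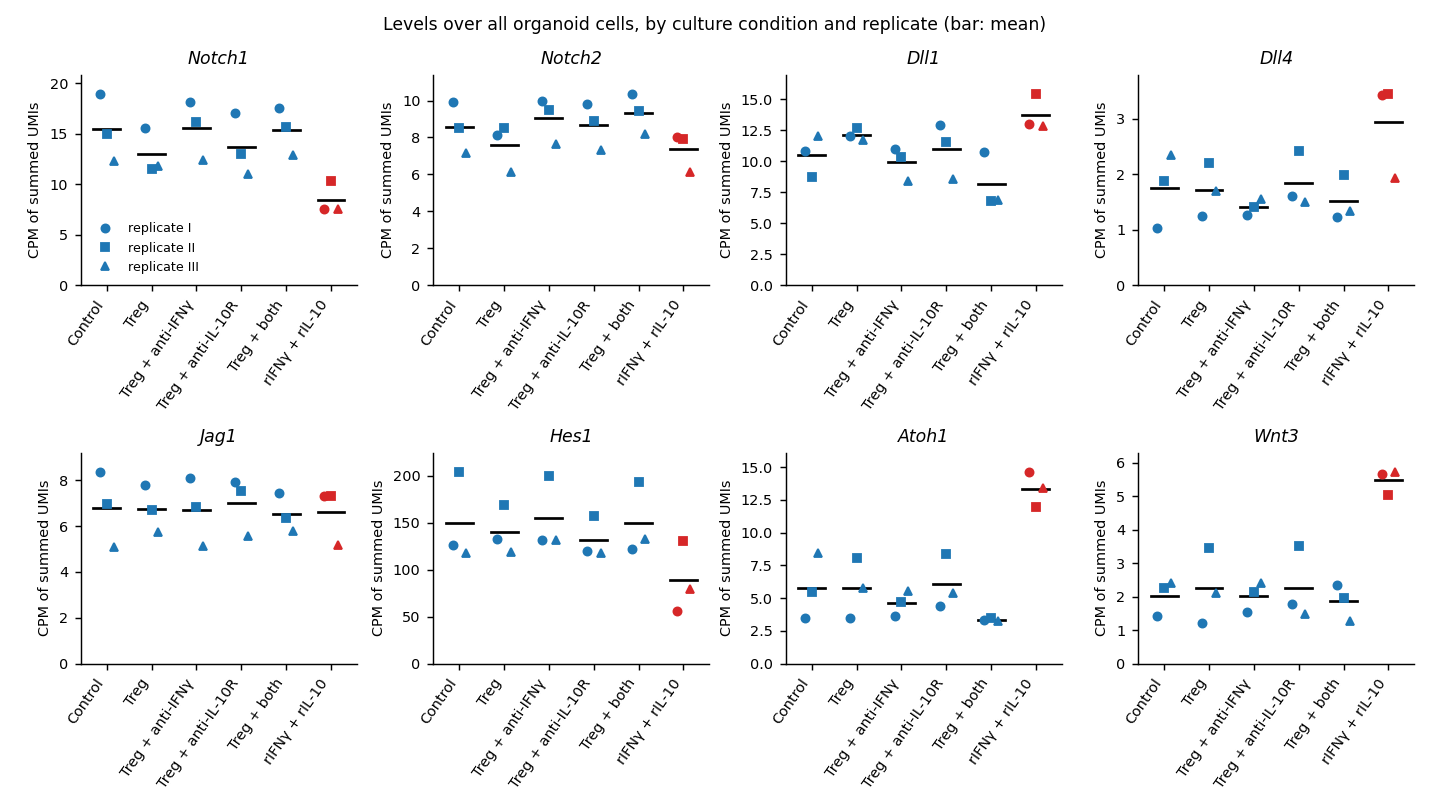
Level of each gene (CPM of summed UMIs over all cells, linear axis from 0) in the 6 culture conditions, with 1 point per replicate, a bar at the mean and cytokine-stimulated organoids in red. The red points of Atoh1 (11.9 to 14.6) and Wnt3 (5.05 to 5.72) lie above, and those of Notch1 (7.51 to 10.3) below, all other points.

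The cell classes moved as well. Goblet/Paneth-like cells made up 2.45% ± 0.67 of control cells and 9.11% ± 2.03 of stimulated cells (SD, n = 3), endocrine-like cells 1.71% ± 0.32 and 3.92% ± 1.36, and ISC-like cells 10.1% ± 1.35 and 4.09% ± 0.50. In sums over the whole organoid, fewer cells of a type and less RNA per cell cannot be told apart. At the class shares of the controls, stimulated organoids would have had 7.44 ± 2.47 CPM of Atoh1 in place of 13.3 ± 1.34 (controls, 5.80 ± 2.47) and 3.12 ± 1.86 CPM of Wnt3 in place of 5.48 ± 0.37 (controls, 2.02 ± 0.54). For Dll4 the value was 1.68 ± 0.79 CPM, close to the 1.75 ± 0.67 CPM of the controls. Hes1 and Notch1 remained lower than in controls at these shares, with 95.8 ± 37.1 CPM (controls, 149.3 ± 47.5) and 9.98 ± 1.70 CPM (controls, 15.4 ± 3.35). These standardized values were not tested.

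Counted by class, goblet/Paneth-like cells held 58.4% of the Atoh1 UMIs of control organoids and 79.5% of those of stimulated organoids. For Wnt3 the shares were 54.7% and 67.3%, for Dll4 26.7% and 46.9%, and for Dll1 19.1% and 41.3%. For the ligands, the largest control share lay in TA-like cells, which outnumber the secretory cells, with 51.0% of Dll1 and 41.5% of Dll4 UMIs, against 25.4% and 17.4% after stimulation. Endocrine-like cells held another 21.7% and 17.9% of Wnt3 and 12.6% and 23.2% of Dll4.

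**Figure D3:**
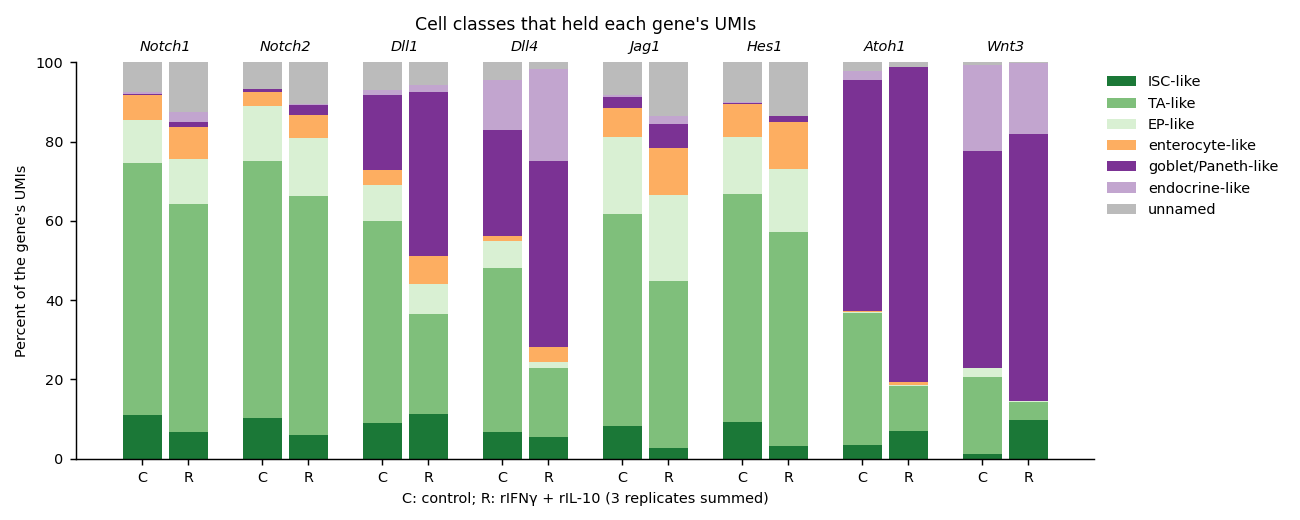
Percent of the UMIs of each gene that were counted in each cell class, for control (C) and rIFNγ plus rIL-10 (R) organoids with the 3 replicates summed. The goblet/Paneth-like part is larger in R for Dll1, Dll4, Atoh1 and Wnt3, whereas Notch1, Notch2 and Hes1 are mostly counted in TA-like cells in both.

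To look within classes, sums of each class were tested separately in the 4 classes in which every sum held at least 10 cells. A gene was tested where it passed the filter on low counts, which left 25 pairs of gene and class. After stimulation with rIFNγ plus rIL-10, 10 of the 25 pairs passed. Among all genes tested the share that passed was 29.8% in TA-like cells, 25.4% for enterocyte-like cells, 23.6% for EP-like cells and 7.62% for ISC-like cells. In ISC-like cells, Atoh1 and Wnt3 entered the test with no control sum at the minimum, and without these pairs 8 of 23 passed, 7 of them lower and 1 higher.

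Hes1 fell in all 4 classes. In ISC-like cells it changed from 149, 237 and 193 CPM to 75.2, 126 and 49.0 CPM, without overlap, by -1.15 ± 0.14 (edgeR adjusted p = 2.5e-06). In enterocyte-like cells it changed from 143, 173 and 90.0 CPM to 38.6, 106 and 56.3 CPM, where the groups overlapped but each stimulated sample lay below its own control, by -1.11 ± 0.19 (edgeR adjusted p = 0.00027). The change was -0.48 ± 0.08 in TA-like and -0.60 ± 0.12 in EP-like cells (edgeR adjusted p = 0.00028 and 0.0012). Without replicate as a block, only the call in ISC-like cells remained, and the adjusted p was 0.46 for TA-like, 0.30 for EP-like and 0.050 for enterocyte-like cells.

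Notch1 passed the test, with a lower level, in 3 of the 4 classes. It changed from 22.6, 17.7 and 15.2 CPM to 12.7, 13.1 and 9.33 CPM in TA-like cells (-0.58 ± 0.09, edgeR adjusted p = 9.1e-05) and from 12.7, 10.3 and 6.47 CPM to 3.48, 5.38 and 2.49 CPM in enterocyte-like cells (-1.44 ± 0.26, edgeR adjusted p = 0.00032), without overlap in either. In EP-like cells the change was -0.68 ± 0.23 (edgeR adjusted p = 0.037), a call that held in 7 of 11 alternatives and not in DESeq2 (adjusted p = 0.088). Without replicate I, the calls in EP-like (-0.38, adjusted p = 0.55) and enterocyte-like cells (-1.09, adjusted p = 0.066) were lost. In ISC-like cells Notch1 differed by -0.31 ± 0.25 (95% interval -0.80 to 0.19). Whether the classes differ in their change was not tested. Notch2 and Jag1 passed in 0 of 4 classes each by edgeR and by DESeq2, with 0 values at p under 0.05 before adjustment.

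In ISC-like cells, Dll1 rose. Atoh1 and Wnt3 passed the filter only through sums outside the controls, so that their values are a description and no test is read from them. Atoh1 measured 3.76, 1.98 and 0.759 CPM in controls and 29.8, 15.4 and 56.8 CPM after stimulation, an 11.9-fold ratio of the pooled levels (95% exact counting interval 6.73 to 22.3). Wnt3 was counted with 2, 0 and 0 UMIs in controls and 1, 21 and 18 UMIs after stimulation, a ratio of 50.9 with a wide counting interval from 13.2 to 434.8, and replicate I had no more UMIs than its control. These intervals treat UMIs of a few cells as independent and do not hold the spread between replicates. Dll1 changed from 18.8, 7.14 and 7.59 CPM to 27.2, 51.4 and 78.3 CPM, by 2.06 ± 0.40 (edgeR adjusted p = 0.0010), and missed the threshold without replicate III (1.59, adjusted p = 0.063).

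These stimulated ISC-like sums held 20, 36 and 15 cells, of which 3, 8 and 4 had an Atoh1 UMI. Their goblet cell markers summed to 5347, 4232 and 9489 CPM, against 1122, 332 and 514 CPM in control ISC-like cells, and their ISC markers to 2617, 2632 and 2362 CPM, against 4467, 4217 and 4852 CPM. The 10% of cells outside the secretory classes with the highest secretory marker share were left out, a choice made after seeing the data. Among ISC-like cells these were 18, 18 and 10 control cells and 6, 13 and 4 stimulated cells. Dll1 then no longer rose (-0.16, edgeR adjusted p = 0.93), and Atoh1 and Wnt3 did not pass the filter. The part of the lower cell number was not tested. Hes1 still fell, with calls for enterocyte-like (-1.11), ISC-like (-0.80), EP-like (-0.60) and TA-like cells (-0.48).

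In TA-like cells, the levels of Atoh1 (-0.05 ± 0.35), Wnt3 (-0.42 ± 0.58), Dll1 (-0.20 ± 0.22) and Dll4 (-0.08 ± 0.37) missed the threshold. In goblet/Paneth-like cells themselves, which were tested without the group with both antibodies because 1 of its sums held under 10 cells (a fit added after seeing the data), 0 of 5 genes passed in edgeR and in DESeq2, none at p under 0.05 before adjustment, beside 1.26% of all genes. Atoh1 measured 149.8, 158 and 240.4 CPM in control and 153, 167 and 153 CPM in stimulated cells (-0.18 ± 0.17, 95% interval -0.51 to 0.14). Wnt3 measured 68.3, 67.5 and 50.5 CPM and 51.2, 59.3 and 55.1 CPM (-0.16 ± 0.18, 95% interval -0.51 to 0.19). The groups overlapped for both. The make-up of the class moved as well: the sub-cluster led by defensins, which was low in Dll1, held 2 of 41 control and 29 of 151 stimulated cells, and a sub-cluster led by mitosis genes held 16 and 31, and their part in these values was not tested. Dll1 differed by -0.36 ± 0.22, Dll4 by -0.24 ± 0.33 and Hes1 by -0.32 ± 0.41.

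**Figure D4:**
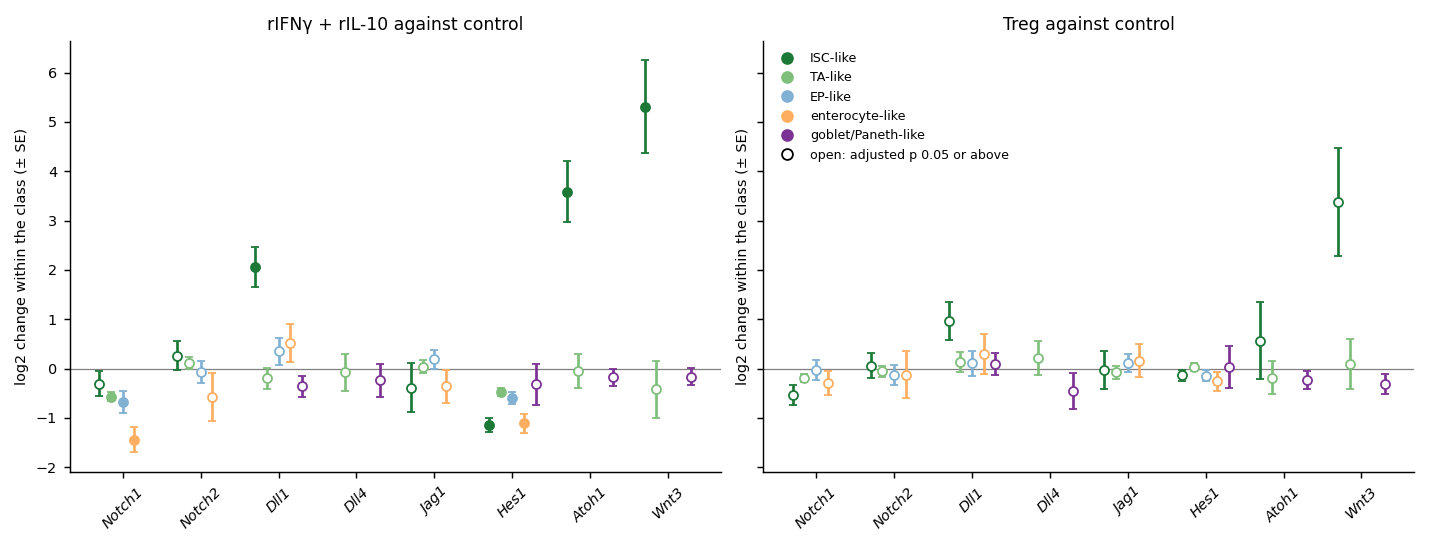
log2 change (± SE) of each gene within cell classes for rIFNγ plus rIL-10 (left) and Treg cells (right) against control, with filled points where the edgeR adjusted p is under 0.05. Hes1 lies below 0 in 4 filled classes on the left, and the high ISC-like points of Atoh1 and Wnt3 come from control sums with few or no UMIs, so that their fitted size depends on how such counts are treated.

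Next, organoids co-cultured with Treg cells were compared with controls. Over the whole organoid, 0 of the 8 genes passed (edgeR and DESeq2, none at p under 0.05 before adjustment), beside 0.154% of all genes. Atoh1 measured 3.50, 8.06 and 5.75 CPM with Treg cells and Wnt3 1.22, 3.45 and 2.11 CPM, overlapping with controls. The differences were 0.05 ± 0.27 for Atoh1 (95% interval -0.47 to 0.57), 0.17 ± 0.33 for Wnt3 (-0.48 to 0.82) and -0.06 ± 0.11 for Hes1 (-0.28 to 0.15). Notch1 measured 15.6, 11.6 and 11.8 CPM, below its control within each replicate, with a difference of -0.25 ± 0.12 (edgeR adjusted p = 0.74). The comparisons of Treg cells, antibodies and cytokines with control share the same control samples.

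Within classes, 0 of 25 pairs passed for Treg cells in edgeR and DESeq2. Before adjustment, 4 pairs had p under 0.05 in edgeR, or 3 of the 23 pairs with a control sum at the low-count minimum. The 4 were Notch1, Wnt3 and Dll1 in ISC-like cells (beside 544 of all 9979 genes) and Notch1 in TA-like cells (beside 1091 of 13136). In DESeq2 only Notch1 and Wnt3 in ISC-like cells had p under 0.05. Among all genes the share that passed was 0.388% in TA-like cells, 0.157% for EP-like cells, 0.15% for ISC-like cells and 0.0894% for enterocyte-like cells. In ISC-like cells, Dll1 measured 14.2, 33.8 and 23.3 CPM with Treg cells, above the control in replicates II and III and below it in replicate I. The difference of 0.97 ± 0.39 was not called (edgeR adjusted p = 0.84), and it was called without replicate I (2.02, adjusted p = 0.0069) or without the filter on low counts (0.95, adjusted p = 0.019). Wnt3 was counted with 4, 10 and 8 UMIs against 2, 0 and 0 in controls, a ratio of 12.2 with a 95% counting interval of 2.99 to 106.8 that leaves out the spread between replicates. Between samples Wnt3 was not called (edgeR adjusted p = 0.58), except without the filter (adjusted p = 0.015), and it too had no control sum at the low-count minimum. Goblet markers in these cells summed to 654, 1379 and 1768 CPM, so they moved in the same replicates as Dll1, and their part in the result was not tested. Notch1 differed by -0.54 ± 0.21 in ISC-like and by -0.20 ± 0.08 in TA-like cells (edgeR adjusted p = 0.84 and 0.50). In goblet/Paneth-like cells 0 of 5 genes passed, as 0% of all genes did (edgeR, 483 genes with p under 0.05 before adjustment, and 0 called by DESeq2).

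The antibody groups were described next. As 0 of 8 genes passed for Treg cells against control, they cannot tell whether an effect of Treg cells needs IFNγ or IL-10R. The groups with a single antibody were compared with control only. Against control, 0 of 8 genes passed with anti-IFNγ (beside 0% of all genes, 298 at p under 0.05 before adjustment in edgeR and 0 called by DESeq2), with anti-IL-10R (beside 0.482%) and with both antibodies (beside 0% of all genes, 477 at p under 0.05 in edgeR and 1 called by DESeq2). DESeq2 called 0 of the 8 genes in each. With anti-IFNγ or anti-IL-10R alone, 0 of 8 genes had p under 0.05 before adjustment, and with both antibodies Atoh1 (-0.70 ± 0.28) and Dll1 (-0.37 ± 0.16) had.

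Compared with Treg cells alone, Treg cells plus both antibodies gave 0 called genes of 8, beside 0.214% of all genes. Atoh1 measured 3.34, 3.47 and 3.26 CPM with both antibodies, with a smaller spread than the 3.50, 8.06 and 5.75 CPM with Treg cells, and differed by -0.75 ± 0.28 (edgeR adjusted p = 0.40). Dll1 measured 10.7, 6.83 and 6.85 CPM against 12.03, 12.6 and 11.7 CPM, without overlap. Its difference of -0.60 ± 0.16 was not called (edgeR adjusted p = 0.22), and it was called by DESeq2 (-0.61, adjusted p = 0.047) and without replicate I (-0.86, adjusted p = 0.046). Notch2, at 10.4, 9.41 and 8.19 CPM against 8.16, 8.52 and 6.11 CPM, overlapped and differed by 0.27 ± 0.07 (edgeR adjusted p = 0.19). These were the 3 genes with p under 0.05 before adjustment.

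To describe Atoh1-expressing cells outside the secretory classes, cells outside the goblet/Paneth-like and endocrine-like classes were split by the presence of an Atoh1 UMI. Of 10929 cells, 356 had one, and both kinds of cells were summed in each of the 18 samples. The test treats these as 18 pairs, although they came from 3 replicates, so its p-values and the counts of samples can overstate the support. Of the other 7 genes, 5 passed the test with the sample as a block, beside 30.5% of all genes. For Dll4 and Wnt3, which are among these 5, every sum without Atoh1 lay below the low-count minimum. They passed the filter only through sums with Atoh1, so that their values are a description and no test is read from them.

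Dll1, Dll4 and Wnt3 were higher in cells with Atoh1. Dll1 had a median of 67.1 CPM (lowest 8.38, highest 109.5) there and in the other cells 5.39 CPM (4.06 to 7.84), without overlap, and it was higher in 18 of 18 samples (3.44 ± 0.16, edgeR adjusted p = 1.3e-16). Dll4 had a median of 10.5 CPM (3.50 to 22.2) against 0.572 CPM (0.252 to 0.995), also without overlap and higher in 18 of 18 samples. Wnt3 had a median of 8.63 CPM (0 to 37.2) against 0.130 CPM (0 to 0.481) and was higher in 17 of 18 samples. All 3 genes were high in goblet/Paneth-like control cells, and Dll4 and Wnt3 also in endocrine-like control cells.

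Of the receptors, Notch1 had a median of 23.6 CPM (3.39 to 36.8) in cells with Atoh1 and 13.0 CPM (7.87 to 18.8) in the others, higher in 15 of 18 samples (0.66 ± 0.11, edgeR adjusted p = 1.2e-05). Both sides of the split differed in class make-up. In control replicates I, II and III, 10, 27 and 13 TA-like cells had an Atoh1 UMI. Only 0, 0 and 1 EP-like and 1, 0 and 0 enterocyte-like cells had one. Control Notch1 was lower in these last classes than in TA-like cells. The split was not made within classes, and the part of class make-up was not tested. Notch2 (0.06 ± 0.16) and Jag1 (-0.22 ± 0.16) missed the threshold. Hes1 had a median of 103.7 CPM (22.7 to 210.2) against 134.0 CPM (62.1 to 210.2), lower in cells with Atoh1 in 16 of 18 samples (-0.45 ± 0.09, edgeR adjusted p = 0.00016), although the ranges overlapped.

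Goblet markers moved with the split, with 1363 to 16100.1 CPM in cells with Atoh1 and 106 to 327 CPM in the others. Without the 10% of cells highest in secretory markers, 2 of the genes passed, Dll1 (1.46) and Notch1 (0.71). Hes1 no longer differed in that direction (0.02, edgeR adjusted p = 0.91), and Wnt3 and Dll4 did not pass the filter. This left 9, 18 and 9 control cells with Atoh1, from 14, 32 and 15. In stimulated replicates 2, 8 and 0 were left, from 8, 30 and 9. The part of the lower cell number was not tested. With every cell thinned to 10000 UMIs before the split, Dll1 (3.74) and Hes1 (-1.30) passed, Notch1 was not called (0.60, adjusted p = 0.16) and Wnt3, Dll4 and Jag1 did not pass the filter. At this depth 1 sample had 0 cells with Atoh1, and another with 3 such cells had 0 CPM of Dll1 in them.

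**Figure D5:**
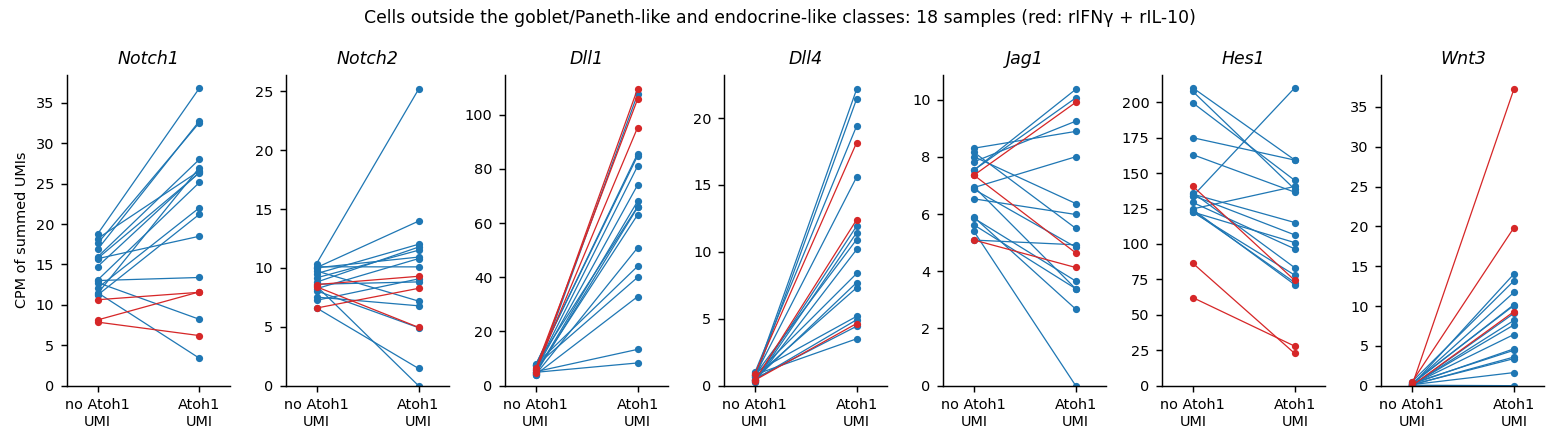
Level of 7 genes (CPM of summed UMIs, linear axes from 0) in cells without and with an Atoh1 UMI outside the secretory classes, with 1 line for each of the 18 samples and cytokine-stimulated samples in red. Dll1 and Dll4 are higher with Atoh1 in 18 of 18 samples, Wnt3 in 17, Notch1 in 15, and Hes1 is lower in 16.

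Further genes of the Notch and Wnt pathways and of secretory fate (102 genes in lists) were described by counts. After rIFNγ plus rIL-10, 19 of 87 tested genes were higher and 21 lower over the whole organoid, beside 18.7% and 17.9% of all genes, which is near the share in the lists. Of 11 factors downstream of Atoh1 or of secretory fate, 7 were higher and 2 lower (median log2 change 1.122, against -0.01 for all genes), and of 7 crypt Wnt targets 0 were higher and 5 lower (median -0.68). Of 11 genes of Wnt reception 5 were lower (median -0.25), and of 12 nuclear effectors of Notch 2 were higher and 4 lower (median -0.14). The class shares moved with stimulation as given above, and their part in these whole-organoid counts was not tested. The genes with the smallest adjusted p were Dtx3l (2.51 ± 0.25), a ubiquitin ligase of the Deltex family, Kat2b (0.81 ± 0.10), an acetyltransferase, the EGF receptor ligand Areg (2.34 ± 0.31), Sox9 (-0.87 ± 0.13), a crypt transcription factor, and Dvl3 (-0.33 ± 0.05), which relays Wnt signals. Dtx3l was also among the interferon genes left out of the class assignment. Whether its rise belongs to the interferon response or to the Notch pathway was not tested.

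Within classes, Sox9 was lower after stimulation for EP-like (-1.87 ± 0.22), enterocyte-like (-1.81 ± 0.30), ISC-like (-0.74 ± 0.16) and TA-like cells (-0.67 ± 0.08), and Dtx3l was higher in the same 4 classes (1.95 to 2.73). The numbers of list genes higher and lower were 7 and 2 of 62 for ISC-like cells (all genes, 4.01% and 3.61%) and 5 and 12 of 73 for TA-like cells (all genes, 16.1% and 13.7%). They were 6 and 9 of 51 for enterocyte-like cells (13.3% and 12.2%), 5 and 12 of 62 for EP-like cells (13.3% and 10.2%), and 0 and 0 of 51 for goblet/Paneth-like cells (0.973% and 0.288%), where edgeR and DESeq2 called 92 and 69 of all genes and edgeR gave 825 at p under 0.05 before adjustment. In ISC-like cells the higher genes included the secretory factors Spdef, Creb3l1 and Foxa1, and goblet markers were raised in the same sums. Sox4, from the same list of factors downstream of Atoh1 or of secretory fate, was lower in other classes. It changed by -0.68 ± 0.09 in TA-like and by -1.80 ± 0.27 in EP-like cells. The list genes were not retested without the cells highest in secretory markers. It was not examined if Spdef (7.04 ± 0.92 in ISC-like cells) reached the low-count minimum in control sums. The ISC-like count may thus hold calls that came only through stimulated sums. With Treg cells, Kat2b was higher in EP-like cells (0.77 ± 0.15, edgeR adjusted p = 0.034), and it was the only list gene called in a Treg cell comparison of the edgeR fits. In cells with Atoh1, 14 of 67 list genes were higher and 8 lower, beside 13.2% and 17.3% of all genes. All 8 tested factors downstream of Atoh1 or of secretory fate were higher (median 2.20, against -0.01 for all genes). As that list was drawn up around Atoh1 and the cells were split by Atoh1, this count is a description and no test is read from it. Whether list genes such as Spdef reached the low-count minimum in sums without Atoh1 was not examined. The genes with the smallest adjusted p were Lfng (2.55 ± 0.15), which modifies Notch receptors, Sox4 (1.62 ± 0.10), Hes6 (0.90 ± 0.06), Spdef (5.86 ± 0.41) and Foxa2 (2.09 ± 0.15).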

How the data were processed

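The deposited files held gene and hashtag UMI counts per cell barcode, which the authors made with Cell Ranger 7.0.0 (mm10, GRCm38), without normalization. Library B6 was not used here, as the study left it out. From these counts, hashtag singlets were called with Seurat 5.3.0 (HTODemux, quantile 0.99), and barcodes were kept within limits of depth (10000 to 90000 UMIs), detected genes (3000 to 10000) and mitochondrial share (up to 8.5%). A simulated-doublet caller removed 384 cells; its AUC for hashtag doublets ranged from 0.214 to 0.75, so that it worked poorly and doublets of 1 condition may remain. Control cells were clustered (leidenalg 0.10.2, 3000 variable genes, 30 components, 20 neighbors, resolution 1) without the 8 genes and mitochondrial genes. All cells were assigned by correlation over 508 marker genes, from which interferon genes were left out as well.

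Counts were summed per condition, replicate and class (at least 10 cells) and tested with edgeR 4.0.16 (quasi-likelihood, TMM, filterByExpr, replicate as a block, as same-replicate samples deviated together, with r from 0.106 to 0.914 over 45 pairs, against -0.758 to 0.263 over 90 other pairs), with Benjamini-Hochberg adjustment over all genes and a threshold of 0.05. Standard errors were derived from the F statistic and intervals are at 95%. The code was tested on simulated data. Alternatives were DESeq2 1.42.0, RLE size factors, no filter, no block, wider cell limits, no doublet caller, clear class margins, equal depth and omission of each replicate. The labels do not say that replicates came from separate mice, so p-values measure the spread between these samples. The 8 genes and the gene lists were chosen with earlier results of these data known. Of the lists, at most 5 genes per comparison with the smallest adjusted p under 0.05 were eligible for naming; Sox9 and Dtx3l were followed across classes because they were eligible in each.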

Additional observations from a re-analysis of the deposited data

Results flagged for a closer look

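Wnt3 moved in opposite directions in 2 cell classes when Treg cells were compared with control. In ISC-like cells it was higher with Treg cells in all 3 replicates, with a mean log2 change over replicates of 2.005 (log2(CPM + 1) scale), from 2, 0 and 0 UMIs in controls to 4, 10 and 8 UMIs. In goblet/Paneth-like cells it was lower in all 3 replicates, with a mean of -0.291, from 68.3, 67.5 and 50.5 CPM to 45.1, 60.5 and 46.1 CPM. Neither change passed the edgeR test, and the difference between the classes was not tested. In ISC-like cells Wnt3 had no control sum at the low-count minimum. Goblet markers in the same ISC-like sums were higher with Treg cells in replicates II and III and lower in replicate I, and their part was not tested.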

How the results depend on the processing

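Of 115 values tested for the 8 genes, 21 were called, and the shares over all genes are given with each comparison above. The 21 include values from which no test is read. These are Atoh1 and Wnt3 in ISC-like cells after stimulation and Dll4 and Wnt3 in the Atoh1 comparison. Among 1140 values recomputed under alternatives, 1105 kept their direction and their side of the threshold or were uncalled throughout, 23 lost and 10 gained a call, and 2 reversed. The 1105 include 81 sign changes of values that were not called in either analysis. A gene that did not pass the filter under an alternative is left out of these counts and is not counted as a lost call. Wnt3 in ISC-like cells after stimulation, for example, had 8 alternatives, against 11 for Notch1. Without the replicate block (the pairing by replicate), 3 in place of 6 genes were called for rIFNγ plus rIL-10 over the whole organoid. Within classes 6 in place of 10 pairs were called, and both counts hold Atoh1 and Wnt3 in ISC-like cells. No other count of calls moved by over 1.5 times under that setting, for which no share over all genes is given. For both antibodies against Treg cells, DESeq2 called 1 gene, and leaving out 1 replicate gave 0 to 1 (Dll1, without replicate I). For Treg cells within classes, 2 pairs were called with no filter on low counts, and 0 to 1 when 1 replicate was left out (Dll1 in ISC-like cells, without replicate I). In the Atoh1 comparison, 2 in place of 5 genes were called after thinning to 10000 UMIs, and 2 without the 10% of cells highest in secretory markers. The 5 include Dll4 and Wnt3, which passed the filter only through the sums with Atoh1. Leaving out the cells highest in secretory markers reversed Hes1 in that comparison (0.023) and Dll1 in ISC-like cells with rIFNγ plus rIL-10 (-0.16). The causes were not tested. Levels of Dll4, Wnt3 and Atoh1 outside the secretory classes rest on few UMIs, and the goblet/Paneth-like and endocrine-like sums of single samples on few cells, which limits what could be detected there.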
